A study of Mus musculus with 30 samples.

Results

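Base excision repair mends single damaged bases in DNA. A DNA glycosylase removes the damaged base and leaves an abasic site, the endonuclease Apex1 cuts the backbone at that site, a polymerase refills the gap and a ligase closes the strand. Apex1 has a further role as a redox factor that keeps several transcription factors in their active, reduced form, and it is the gene deleted in the mice described here. The 10 genes examined were chosen by name from this pathway, with earlier results of these data known: Apex1, its paralog Apex2, the glycosylases Ogg1, Mutyh, Nthl1 and Ung, the polymerase Polb, the scaffold protein Xrcc1, the ligase Lig3 and the strand break sensor Parp1. They are 10 of the 55416 genes in the count table, and 34 other genes of the same pathway served as a wider list.

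The tissue was the callus that forms around a tibial fracture, taken at 3, 6, 10 and 14 days post-fracture (dpf), and its total RNA was sequenced in bulk after depletion of ribosomal and beta globin RNA. P-Apex1KO mice carried Prrx1-Cre and 2 floxed Apex1 alleles (Prrx1-Cre+;Apex1 C/C). Their WT littermates were Prrx1-Cre+/-;Apex1 C/+, Apex1 C/C or Apex1 C/+, so a WT mouse could carry Cre and a single floxed allele. The labels do not give which of these genotypes each WT mouse had. All were young adults with a non-stabilized closed fracture and no further treatment that the labels name. Prrx1-Cre acts in the mesenchyme of the limb bud, so blood cells, endothelium and other cells of the callus kept Apex1. The groups were 4 WT and 4 P-Apex1KO mice at 3-dpf, 5 and 3 at 6-dpf, 4 and 3 at 10-dpf, and 4 and 3 at 14-dpf, 30 libraries in all with 1 mouse each. In bulk RNA, fewer cells of a type and less RNA per cell cannot be told apart.

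The libraries held between 18334389 and 43111491 counts on genes. Both sexes were present in each group except P-Apex1KO at 14-dpf, where all 3 mice were female against 1 of 4 WT mice, so the 14-dpf difference with sex in the model rests on that WT female. Replicate 1 of the libraries labelled P-Apex1KO at 3-dpf stood apart: the lowest correlation between replicates of that group was 0.944, against at least 0.966 in the other groups, and its summed level of 8 neutrophil markers was 896 CPM (counts scaled to the size of the library) against 5283 to 8749 CPM in the other 3. Tests of the 10 genes whose calls changed without it are given with and without it, and most other values only with it. As markers of the tissue, 10 cartilage genes summed to 321 to 351 CPM in WT at 3-dpf, and to 29607 to 54474 CPM at 6-dpf. Matn1 and Snorc were each at 0 in 3 of all 30 libraries. Markers of osteoblasts, skeletal muscle, endothelium and leukocytes were counted in every library.

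Apex1 (ENSMUSG00000035960) lies on chromosome 14 of GRCm39 from 51162177 to 51164642 on the plus strand, with 5 exons in its canonical transcript. Osgep, which encodes a subunit of a tRNA-modifying complex, runs the other way from the same place. The longest gene models overlap at their starts, and in RefSeq 55 bases lie between the start of Apex1 and that of Osgep. These 55 bases are printed because both genes are read outward from them, and stretches of the same length before Lig3 and Parp1 are printed because they share the hexamer CACGTG with it. They are shown 5′ to 3′ on the plus strand, with the E box CACGTG, the CCAAT box and, on either strand, the GC box GGGCGG in capitals.
Apex1, GRCm39 chr14:51162351-51162405: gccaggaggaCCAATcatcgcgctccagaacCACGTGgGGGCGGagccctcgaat
Lig3, GRCm39 chr11:82671880-82671934: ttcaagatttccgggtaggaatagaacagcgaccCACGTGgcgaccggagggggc
Parp1, GRCm39 chr1:180396383-180396437: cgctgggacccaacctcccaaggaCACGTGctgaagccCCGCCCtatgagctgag
The hexamer begins 24 bases before the RefSeq start of Apex1, 21 before that of Lig3 and 49 before that of Parp1. The RefSeq promoters used here covered 8 of the 10 genes (not Apex2 and Polb). The stretch of Apex1 ends just before its canonical transcript, which starts at 51162407, that of Lig3 ends on the first base of its first exon, and that of Parp1 ends before its canonical start at 180396478. Within 250 bases before the start, CACGTG was present in 3 of the 8, against 6.02% of 32851 mouse promoters of the same length. GGGCGG was present in 6 of the 8 (32.7% of all promoters), CCAAT in 5 (33.8%) and CCGGAAG, an ETS site, in 2 (6.91%). These are matches of letters, not sites of binding.

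All 10 genes were transcribed in every callus. Levels were set per kilobase of canonical transcript, but reads were counted over all exons of a gene, so the order depends on the length chosen. All annotated exons together spanned 10623 bases for Polb, 7285 for Parp1 and 1716 for Apex1. Their canonical transcripts had 1349, 3889 and 1303 bases. Levels per kb of all exons were not computed. Per kb of canonical transcript, Parp1 had the highest level in the 17 WT libraries at 20.8 ± 3.19 CPM per kb (SD, n = 17), followed by Apex1 at 19.6 ± 3.33 and Polb at 17.9 ± 1.5 CPM per kb. Xrcc1, which holds the repair complex together, had 12.8 ± 1.33, Lig3 11.7 ± 0.949 and Apex2 10.9 ± 2.13 CPM per kb. On this scale the glycosylases were the lowest of the 10: Ung, which removes uracil, had 5.08 ± 1.47 CPM per kb, and Ogg1, which removes oxidized guanine, had 3.21 ± 0.506. Nthl1, which removes oxidized pyrimidines, had 1.99 ± 0.512 and Mutyh, which removes adenine paired with oxidized guanine, 1.55 ± 0.314 CPM per kb. The first neighbours in this order were not separated, since Parp1 lay above Apex1 in 11 of 17 WT libraries and Apex1 above Polb in 13, whereas Polb lay above Xrcc1 in 16, Apex2 above Ung in all 17, and Ogg1 above Nthl1 in all 17. The least counted were Nthl1, with 27 to 102 reads in a library, and Mutyh with 36 to 142, so that their values carry more counting error than those of Parp1 (1357 to 4352 reads).

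The other members lie on other chromosomes of GRCm39. Lig3 (ENSMUSG00000020697) has 20 exons on chromosome 11 from 82671934 to 82695100, and Parp1 (ENSMUSG00000026496) has 23 exons on chromosome 1 from 180396443 to 180431307, both on the plus strand. Ung (ENSMUSG00000029591) has 7 exons on chromosome 5 from 114268417 to 114277384 on the plus strand. Apex2 is on the X chromosome. Like Apex1, several others begin near the start of a gene read the other way. The starts lay 388 bases apart for Mutyh and Toe1, 545 for Nthl1 and Tsc2, and 770 for Xrcc1 and Pinlyp. For Apex2 and Pfkfb1 the distance was 1639 bases, and for Ung and Alkbh2 it was 2102.

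**Figure D1:**
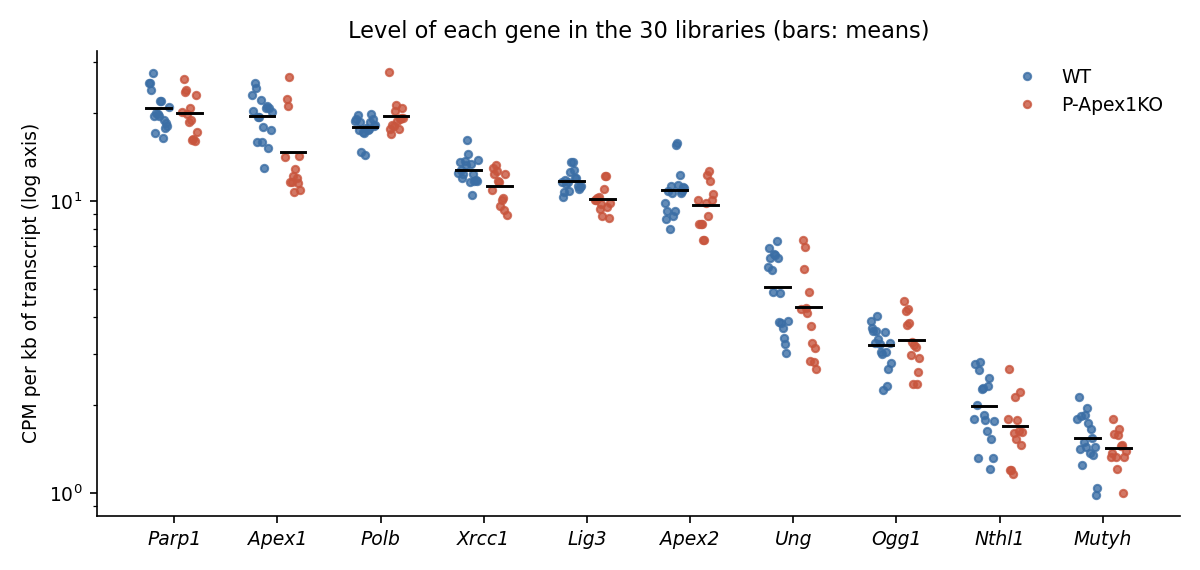
Level of each of the 10 genes in the 17 WT (blue) and 13 P-Apex1KO (red) libraries, in CPM per kb of canonical transcript on a log axis, with each point a library and each bar the mean over the libraries of that genotype. Parp1, Apex1 and Polb lie highest and Nthl1 and Mutyh lowest.

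To determine whether the deletion was visible in the callus, Apex1 was examined in every library. In WT it had 29.99, 26.5, 33.1 and 31.7 CPM at 3-dpf, and 20.7, 25.3, 25.3, 28.9 and 20.8 CPM at 6-dpf. At 10-dpf the WT libraries held 23.4, 17.0, 27.1 and 27.5 CPM, and at 14-dpf 19.8, 27.2, 22.9 and 26.2 CPM. The mean in WT was highest at 3-dpf, and the libraries of the 3 later days overlapped one another. Library names change between 6- and 10-dpf, so a difference of batch cannot be told apart from day across that gap.

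The 4 libraries labelled P-Apex1KO at 3-dpf had 18.4, 29.1, 27.6 and 34.6 CPM. Replicate 1 was the lowest library of that time point and replicate 4 the highest of all 8, so at 3-dpf the transcript did not separate the labels. From 6-dpf on, P-Apex1KO libraries held 15.1, 15.2 and 15.9 CPM at 6-dpf, 14.0, 16.8 and 15.7 CPM at 10-dpf, and 15.1, 18.6 and 14.2 CPM at 14-dpf. Each of these 9 libraries lay below every WT library of its own time point, although at 10-dpf the highest P-Apex1KO library (16.8 CPM) and the lowest WT library (17.0 CPM) nearly met. Of all genes tested, P-Apex1KO lay below WT without overlap in 11.9% at 6-dpf, 10.5% at 10-dpf and 23.4% at 14-dpf. The mean of P-Apex1KO was lower than that of WT by 36.4% at 6-dpf, 34.7% at 10-dpf and 33.6% at 14-dpf. At 3-dpf it was lower by 9.56% with the low replicate 1 included. Gene counts sum over all exons, and the deleted exons are not given in the sources used here, so these values are only a partial check of the deletion.

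By edgeR's quasi-likelihood test with a term for sex, and with p adjusted over all tested genes by Benjamini-Hochberg, the log2 fold change of Apex1 (P-Apex1KO over WT) was -0.67 at 6-dpf (SE 0.11, adjusted p = 0.0071) and -0.65 at 10-dpf (SE 0.13, adjusted p = 0.0278), and both passed the threshold of 0.05. At 3-dpf it was -0.15 (SE 0.19, adjusted p = 0.927, 95% interval -0.58 to 0.27), and -0.02 (adjusted p = 0.959) without replicate 1 of the libraries labelled P-Apex1KO. At 14-dpf it was -0.29 (SE 0.19, adjusted p = 0.367, 95% interval -0.72 to 0.15) with sex in the model, -0.55 (adjusted p = 0.0187) without a sex term and -0.01 (adjusted p = 0.969) with libraries scaled by their size alone. The 6-dpf call held in each of 8 fits that left out 1 library (adjusted p up to 0.0317). The 10-dpf call was lost in 4 of 7 such fits, without replicate 1 of WT (adjusted p = 0.0828) and without replicate 1 (0.104), 2 (0.0571) or 3 (0.0742) of P-Apex1KO, with log2 fold changes between -0.76 and -0.58 over the 7 fits, and it was also lost without a sex term (-0.60, adjusted p = 0.0791).

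Within each sex the order at 6- and 10-dpf was the same. At 6-dpf the P-Apex1KO female had 15.1 CPM against 20.7 to 25.3 CPM in 3 WT females, and the males 15.2 and 15.9 CPM against 25.3 and 28.9 CPM. At 10-dpf the P-Apex1KO female had 14.0 CPM against 17.0 and 23.4 CPM in WT females, and the males 15.7 and 16.8 CPM against 27.1 and 27.5 CPM. At 14-dpf the WT female had 19.8 CPM, the lowest WT value of that time point, against 14.2 to 18.6 CPM in the 3 P-Apex1KO females.

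Ordered by mean, the 8 groups ran from WT at 3-dpf (30.3 ± 2.86 CPM, n = 4) and P-Apex1KO at 3-dpf (27.4 ± 6.71, n = 4) through WT at 6-dpf (24.2 ± 3.48, n = 5), 14-dpf (24.0 ± 3.37, n = 4) and 10-dpf (23.7 ± 4.90, n = 4) to P-Apex1KO at 14-dpf (16.0 ± 2.35, n = 3), 10-dpf (15.5 ± 1.39, n = 3) and 6-dpf (15.4 ± 0.411, n = 3). Each group's range overlapped that of the next group in this order. The step between WT and P-Apex1KO is therefore seen within a time point and not between all groups, since the lowest WT library at 10-dpf (17.0 CPM) lay within the range of P-Apex1KO at 14-dpf.

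**Figure D2:**
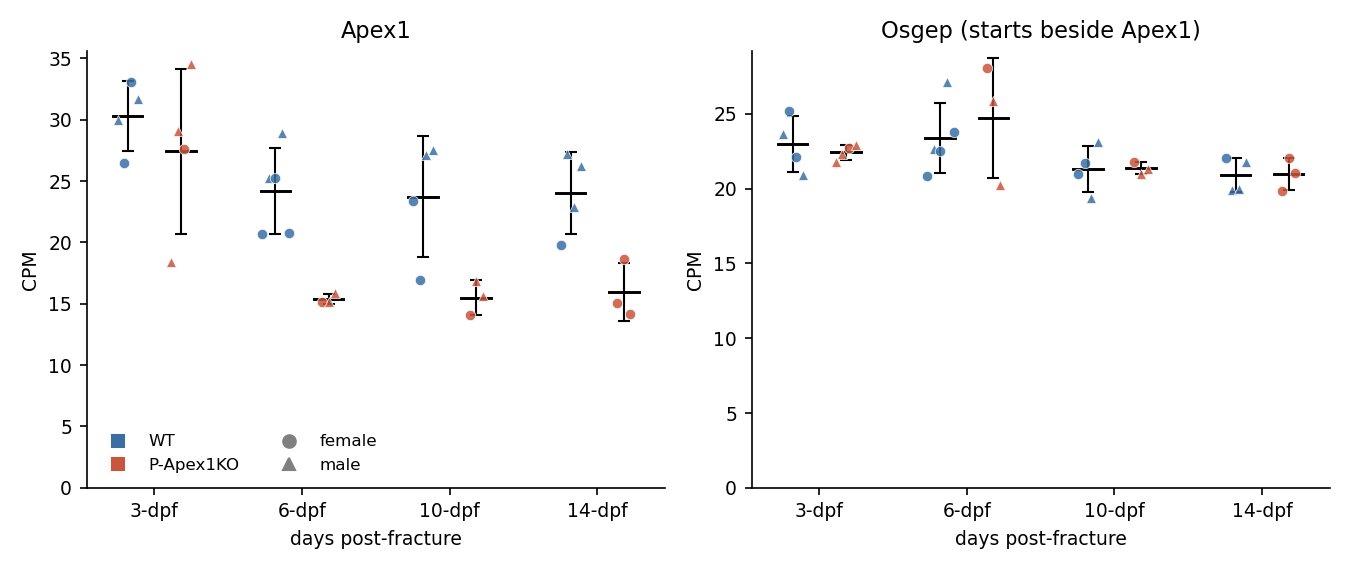
CPM of Apex1 (left) and of its neighbour Osgep (right) in each library by days post-fracture, with WT in blue, P-Apex1KO in red, circles for females, triangles for males, and black bars for the mean ± SD. Apex1 lies at 14.0 to 18.6 CPM in the 9 P-Apex1KO libraries from 6-dpf on, below the WT libraries of the same day, whereas Osgep overlaps between genotypes at each time point.

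The genes around Apex1 were examined to learn whether the difference extended along the chromosome. Osgep, on the opposite strand, did not pass the test at any time point, with log2 fold changes of -0.02, 0.11, 0.02 and -0.04 at 3-, 6-, 10- and 14-dpf and adjusted p between 0.661 and 0.983. Its WT libraries held 19.4 to 27.1 CPM over all days and its P-Apex1KO libraries 19.9 to 28.1 CPM. Pip4p1, a lipid phosphatase gene that overlaps the end of Apex1 on the opposite strand, did not pass either (log2 fold changes 0.02 to 0.28, adjusted p at least 0.315). Reads were counted by strand, so reads of these overlapping genes were kept apart. Klhl33 did not pass at any time point, and Gm49342 was too low to be tested. Pnp and Pnp2, which encode purine nucleoside phosphorylases downstream on the strand of Apex1, were higher in P-Apex1KO at 14-dpf, with log2 fold changes of 0.71 (SE 0.15, adjusted p = 0.0246) and 1.81 (SE 0.45, adjusted p = 0.0387). They did not pass at the other time points, and at 14-dpf Pnp lost its call without replicate 2 (adjusted p = 0.0629) or 3 (0.0538) of WT and Pnp2 without replicate 2 (0.0794) or 3 (0.0671) of WT or replicate 3 of P-Apex1KO (0.0629).

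A ratio of counts within a library needs no scaling between libraries. For every 100 Osgep reads, WT libraries held 87.3 to 112 Apex1 reads at 6-dpf against 53.8 to 78.3 in P-Apex1KO, and 89.8 to 137 at 14-dpf against 67.3 to 84.5, without overlap at either time point. At 10-dpf the ranges were 77.9 to 140 in WT and 64.5 to 80.1 in P-Apex1KO, and at 3-dpf 105 to 152 and 84.5 to 151, and both overlapped. The ratio was not tested.

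The other 9 genes were then compared between genotypes. At 3-dpf 0 of the 10 genes passed the test, and 0 had an unadjusted p under 0.05 or passed with DESeq2. Of all 19866 genes tested by edgeR, 0% passed in either direction, 1216 had an unadjusted p under 0.05, and DESeq2 called 85. Of the 10, 8 were below 0, with a median log2 fold change of -0.14 against -0.00 over all genes. Nearest to the threshold of an unadjusted test was Lig3, with 68.5, 60.8, 63.3 and 69.5 CPM in WT and 59.4, 59.4, 60.3 and 61.0 CPM in the libraries labelled P-Apex1KO, a log2 fold change of -0.15 (unadjusted p = 0.0605). Polb had 37.4 CPM in replicate 1 of these libraries and 22.9 to 24.5 CPM in the other 3, against 23.7 to 26.6 CPM in WT. Ogg1 had 7.64 to 9.08 CPM in WT and 8.84 to 10.7 CPM in the libraries labelled P-Apex1KO (log2 fold change 0.20, adjusted p = 0.869). Skeletal muscle markers were higher at an unadjusted p under 0.05 in 10 of 10 cases at this time point, though none passed, and their part was not tested.

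At 6-dpf 3 of the 10 genes were lower in P-Apex1KO and 0 were higher, where 10.9% of 20260 genes passed in either direction and 5.61% passed as lower. The 3 were Apex1, Ung and Lig3. The median log2 fold change of the 10 genes was -0.23 against 0.01 over all genes, and 8 of the 10 were below 0. Other transcripts of the callus moved at the same time point: all 10 cartilage markers were lower (summed level 2210 to 4465 CPM in P-Apex1KO), 6 of 8 osteoblast markers were lower, 9 of 10 skeletal muscle and 5 of 6 macrophage markers were higher, and their part in the values of the repair genes was not tested. Of 7 limb mesenchyme markers 0 passed, with a summed level of 4089 to 5474 CPM in WT and 4309 to 5819 CPM in P-Apex1KO, and of 12 proliferation markers 0 passed, with a median log2 fold change of -0.10.

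Ung had 9.66, 13.1, 13.0, 14.5 and 12.7 CPM in WT at 6-dpf and 8.54, 8.19 and 9.69 CPM in P-Apex1KO. Of the P-Apex1KO libraries 2 lay below every WT library, and the third just exceeded WT replicate 1. The log2 fold change was -0.53 (SE 0.14, adjusted p = 0.0378). This call held in 1 of the 8 fits that left out a library, the one without WT replicate 1 (adjusted p = 0.0188), and adjusted p in the 8 fits rose to 0.119.

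Lig3, the ligase that closes the strand together with Xrcc1, had 67.2, 68.8, 63.6, 74.2 and 80.1 CPM in WT at 6-dpf and 55.5, 57.5 and 52.4 CPM in P-Apex1KO. All 3 P-Apex1KO libraries lay below all 5 WT libraries, as was so for 11.9% of the genes tested at this time point. The log2 fold change was -0.34 (SE 0.09, adjusted p = 0.0444), and the call held in 2 of the 8 fits that left out a library, without WT replicate 3 (adjusted p = 0.0488) or P-Apex1KO replicate 2 (0.0477), with adjusted p of up to 0.16. With libraries scaled by their size alone, which moved the median over all genes from 0.01 to 0.20, neither Ung (adjusted p = 0.156) nor Lig3 (0.196) passed, while Apex1 did (log2 fold change -0.48, adjusted p = 0.0328).

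The other glycosylases did not pass at 6-dpf. Nthl1 had 2.88, 3.06, 2.47, 2.50 and 2.01 CPM in WT and 1.26, 1.75 and 2.32 CPM in P-Apex1KO, a log2 fold change of -0.63 (SE 0.25, adjusted p = 0.146, 95% interval -1.19 to -0.06). Ogg1 was at -0.01 (95% interval -0.35 to 0.33) and Mutyh at -0.16 (95% interval -0.67 to 0.35). The interval of Mutyh includes a change of the size seen in Ung, and that of Ogg1 does not.

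Among the genes that act after the cut, Polb, the polymerase that fills the gap, had 25.1, 19.9, 23.2, 23.1 and 19.3 CPM in WT and 24.4, 27.5 and 28.7 CPM in P-Apex1KO at 6-dpf, a log2 fold change of 0.30 (SE 0.12, adjusted p = 0.153). It passed as higher when libraries were scaled by size alone (log2 fold change 0.49, adjusted p = 0.0448). Xrcc1 had 26.9, 29.7, 28.9, 35.0 and 31.5 CPM in WT and 27.6, 25.4 and 25.3 CPM in P-Apex1KO, with a log2 fold change of -0.21 (SE 0.10, adjusted p = 0.22). The highest P-Apex1KO library exceeded the lowest WT library. Parp1, which binds the broken strand and recruits Xrcc1, was at 0.09 (95% interval -0.09 to 0.27). Apex2, the second endonuclease for abasic sites, was at -0.25 (SE 0.15, adjusted p = 0.327, 95% interval -0.58 to 0.08), with 17.7 to 24.9 CPM in WT and 16.2 to 21.9 CPM in P-Apex1KO. No rise of Apex2 was detected beside the lower Apex1 at any time point, with log2 fold changes of -0.21 (adjusted p = 0.348) at 10-dpf and 0.05 (adjusted p = 0.851) at 14-dpf.

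**Figure D3:**
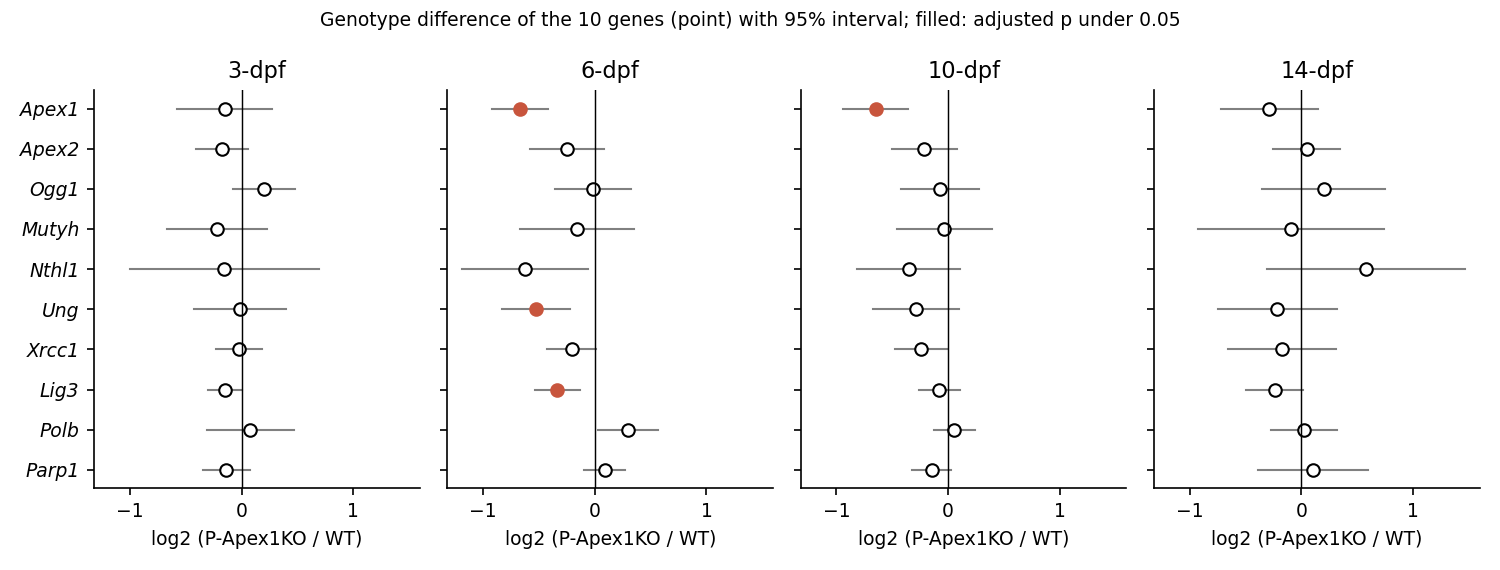
Log2 fold change of P-Apex1KO over WT for the 10 genes at each time point, with 95% intervals from edgeR and filled points for an adjusted p under 0.05. Apex1 is filled at 6- and 10-dpf, Ung and Lig3 at 6-dpf, and no gene at 3- or 14-dpf.

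**Figure D4:**
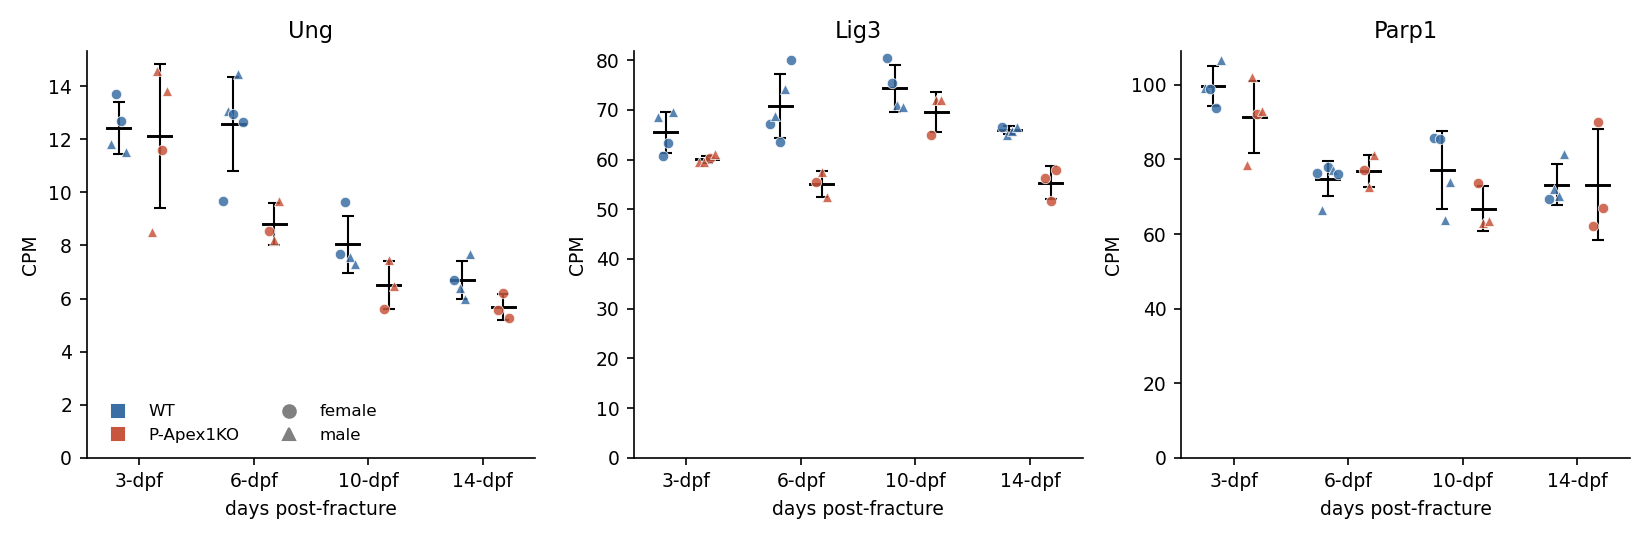
CPM of Ung, Lig3 and Parp1 in each library by days post-fracture, with WT in blue, P-Apex1KO in red, circles for females, triangles for males, and black bars for the mean ± SD. At 6-dpf the 3 P-Apex1KO libraries of Lig3 (52.4 to 57.5 CPM) lie below all WT libraries, and Parp1 in WT is lower at 6-dpf than at 3-dpf.

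At 10-dpf 1 of the 10 genes passed, Apex1, where 6.46% of 18910 genes did. The median log2 fold change of the 10 was -0.18 against -0.00 over all genes, and 9 were below 0. At the same time point 5 of 8 osteoblast markers were lower (summed level 4070 to 5762 CPM against 6533 to 7475 CPM in WT), 4 of 6 macrophage markers were higher and 0 of 12 proliferation markers passed, and their part in these values was not tested. Xrcc1 had 25.2, 29.1, 22.7 and 26.9 CPM in WT and 20.9, 21.8 and 22.2 CPM in P-Apex1KO, without overlap, and a log2 fold change of -0.24 (SE 0.10, adjusted p = 0.189). Of all genes tested at 10-dpf, 10.5% had P-Apex1KO below WT without overlap. Lig3, which was lower at 6-dpf, had 70.5 to 80.4 CPM in WT and 65.0 to 71.9 CPM in P-Apex1KO (log2 fold change -0.08, adjusted p = 0.613), and Ung had 7.31 to 9.64 and 5.61 to 7.44 CPM (-0.29, adjusted p = 0.334). Apex2 had 34.4, 35.1, 25.1 and 27.3 CPM in WT and 27.1, 19.6 and 28.1 CPM in P-Apex1KO, and the genotypes overlapped. The count over all genes at this time point fell to 42 when 1 library was left out, so the share of 6.46% is not a firm one.

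At 14-dpf 0 of the 10 genes passed, with edgeR or with DESeq2, and 0 had an unadjusted p under 0.05, where 11.3% of 20228 genes passed. The median log2 fold change was -0.04 against 0.04 over all genes. With sex in the model all 10 cartilage markers passed as higher in P-Apex1KO at 14-dpf, but their summed level was 4478 to 5310 CPM there against 939 CPM in the WT female and 3888 to 5761 CPM in the 3 WT males. Of 8 neutrophil markers 5 were higher (2649 to 3350 CPM summed, against 1249 to 1923 CPM in WT) and of 8 osteoblast markers 4 were lower (2020 to 3655 CPM against 4944 to 6840 CPM). The part of these in the values of the repair genes was not tested. Lig3 had 66.6, 64.8, 65.7 and 66.4 CPM in WT and 56.4, 51.6 and 57.9 CPM in P-Apex1KO. Its groups did not overlap, and the log2 fold change was -0.24 (SE 0.11, adjusted p = 0.198). Lig3 passed without a sex term (-0.21, adjusted p = 0.034) and in a model of all 30 libraries (-0.24, adjusted p = 0.0225). Lack of overlap was frequent at this time point, with P-Apex1KO below WT in 23.4% of genes, and Apex1 and Lig3 were among those genes. Nthl1 had 1.31 to 1.92 CPM in WT and 2.42, 1.59 and 1.76 CPM in P-Apex1KO, a log2 fold change of 0.58 with a 95% interval from -0.31 to 1.46. Ung had 5.99 to 7.69 CPM in WT and 5.28 to 6.21 CPM in P-Apex1KO, and its log2 fold change was -0.22 (adjusted p = 0.586). Its WT libraries at 3-dpf had 11.5 to 13.7 CPM, but library names change after 6-dpf. Day and a difference of batch cannot be told apart there. Ogg1 had 5.45 to 7.67 and 5.53 to 6.80 CPM, and Polb 24.4 to 26.7 and 25.9 to 28.1 CPM. Xrcc1 had 25.5 to 29.9 CPM in WT and 20.2, 26.9 and 19.5 CPM in P-Apex1KO (-0.17, adjusted p = 0.629), and Parp1 69.4 to 81.4 CPM and 62.3, 90.1 and 67.1 CPM (0.10, adjusted p = 0.794). In both genes replicate 2 of P-Apex1KO was high and the other 2 libraries were below every WT library.

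Whether the genotype difference itself changed was tested between 3- and 6-dpf and between 10- and 14-dpf. Between 3- and 6-dpf 0 of the 10 genes passed, 1 had an unadjusted p under 0.05 and DESeq2 called 0, where 1.3% of 20468 genes passed by edgeR. That gene was Apex1, whose difference moved by -0.46 (SE 0.22, unadjusted p = 0.0493, adjusted p = 0.398). Without replicate 1 of the libraries labelled P-Apex1KO at 3-dpf it moved by -0.62 (adjusted p = 0.0456). Between 10- and 14-dpf 0 of the 10 passed, DESeq2 called 0, and 0.436% of 19705 genes passed by edgeR. Nthl1 alone of the 10 had an unadjusted p under 0.05, with a change of 0.93 (SE 0.33, unadjusted p = 0.0136, adjusted p = 0.248).

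The change with time was tested within each genotype over the same pairs of days. From 3- to 6-dpf in WT, Parp1 fell from 99.0, 98.8, 93.7 and 107 CPM to 76.3, 66.5, 77.9, 77.1 and 76.2 CPM. It was the only one of the 10 genes to pass, where 30.5% of genes did. Its log2 fold change was -0.45 (SE 0.08, adjusted p = 0.00044), and it passed in each of 16 fits that left out 1 library. In P-Apex1KO Parp1 went from 78.5, 102, 92.2 and 93.0 CPM to 77.2, 72.6 and 81.2 CPM, a log2 fold change of -0.24 (adjusted p = 0.0853) that passed without replicate 1 of the 3-dpf libraries (-0.30, adjusted p = 0.0208). The difference between the genotypes in this change was 0.21 (adjusted p = 0.514), so the 2 changes were not shown to differ.

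Apex1 fell from 3- to 6-dpf in P-Apex1KO, with a log2 fold change of -0.82 (SE 0.17, adjusted p = 0.00487), and was the only one of the 10 to pass there, where 14% of all genes did. It passed in each of 16 fits that left out 1 library (adjusted p up to 0.0384). In WT the log2 fold change over the same days was -0.35 (SE 0.14, adjusted p = 0.0746), and it passed without replicate 1 of the libraries labelled P-Apex1KO at 3-dpf (-0.35, adjusted p = 0.0106), which enter the same model. Without that library Ung passed as lower in P-Apex1KO too (-0.58, adjusted p = 0.0122, against -0.45 and 0.0949 with it).

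From 10- to 14-dpf 0 of the 10 genes passed in WT, where 11.1% of genes did, and 0 in P-Apex1KO, where 0.259% did. At an unadjusted p under 0.05 there were 3 in WT (Apex2, Nthl1 and Lig3, all below 0) and 1 in P-Apex1KO (Lig3), and DESeq2 called 0 and 1, again Lig3. Nthl1 in WT went from 1.78 to 2.69 CPM at 10-dpf to 1.31 to 1.92 CPM at 14-dpf (log2 fold change -0.59, SE 0.19, adjusted p = 0.0704). Lig3 in P-Apex1KO went from 65.0, 71.9 and 71.9 CPM to 56.4, 51.6 and 57.9 CPM (-0.35, SE 0.09, adjusted p = 0.0969). Levels at 6- and 10-dpf were not set against each other in a test, since the library names change between them and a difference of batch cannot be told apart from time.

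The other 34 genes of the pathway were examined by role, as 7 further glycosylases, 9 genes for the processing of strand ends and of ADP-ribose, 16 genes of long-patch repair, which resynthesizes a longer stretch with replication enzymes, and 2 genes that cleanse the nucleotide pool. All 34 were tested. Between genotypes 0 passed at 3-dpf (0 at an unadjusted p under 0.05, and 0 with DESeq2) and 0 at 10-dpf (3 at an unadjusted p under 0.05, and 0 with DESeq2). Of all genes tested, 0% passed at 3-dpf and 6.46% at 10-dpf. At 6-dpf 1 of the 34 passed, where 10.9% of 20260 genes did. It was Neil1, a glycosylase for oxidized bases, with 5.28, 4.46, 6.31, 4.44 and 5.62 CPM in WT and 7.997, 6.82 and 6.35 CPM in P-Apex1KO. Its log2 fold change was 0.55 (SE 0.14, adjusted p = 0.035), and it lost the call in each of the 8 fits that left out a library (adjusted p 0.0518 to 0.144).

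At 14-dpf 2 of the 34 passed, where 11.3% of 20228 genes did. Pcna, the sliding clamp of replicative and long-patch synthesis, was higher, with 72.2, 81.6, 79.0 and 80.1 CPM in WT and 102, 109 and 103 CPM in P-Apex1KO (log2 fold change 0.56, SE 0.11, adjusted p = 0.0155). Tdg, a glycosylase that removes thymine from mismatches and oxidized methylcytosine, was lower, with 33.6, 34.1, 32.2 and 32.2 CPM in WT and 24.0, 20.2 and 21.2 CPM in P-Apex1KO (log2 fold change -0.60, SE 0.13, adjusted p = 0.0242). The groups of Tdg did not overlap, and P-Apex1KO lay below WT without overlap in 23.4% of all genes tested at this time point. Pcna lost its call in 1 fit that left out a library, without WT replicate 2 (adjusted p = 0.0502), and Tdg in 3, without WT replicate 2 (0.0649), 3 (0.0641) or 4 (0.0691). Tdg also lost it with libraries scaled by their size alone, where its log2 fold change was -0.33 (adjusted p = 0.164). Of the 12 proliferation markers 6 passed as higher in P-Apex1KO at 14-dpf, with a summed level of 1683 to 1890 CPM against 1046 to 1241 CPM in WT, and their part in the value of Pcna was not tested.

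From 3- to 6-dpf 12 of the 34 genes fell in WT and 1 rose, beside 15.1% of all genes that fell and 15.4% that rose, and the median of the 34 was -0.22 against -0.03 over all genes. The lowest adjusted p among those that fell were those of Rfc5 (log2 fold change -0.57, adjusted p = 0.000542), Rfc3 (-0.45, adjusted p = 0.00175) and Pole (-0.50, adjusted p = 0.0018), subunits of the clamp loader and of a replicative polymerase. Mpg, which removes alkylated purines, rose (0.25, adjusted p = 0.0141). In P-Apex1KO 6 of the 34 fell and 0 rose, beside 6.91% of all genes that fell, led by Rfc5 (-0.61, adjusted p = 0.00348), Pole (-0.50, adjusted p = 0.0114) and Pold2 (-0.38, adjusted p = 0.0153). No gene of the 34 passed the test of a difference between the genotypes in this change (1 at an unadjusted p under 0.05, and 0 with DESeq2). In WT the number ranged from 6 to 16 when 1 library was left out, and in P-Apex1KO from 1 to 18. The 12 proliferation markers summed to 1709 to 2482 CPM in WT at 3-dpf and to 1446 to 1790 CPM at 6-dpf. In P-Apex1KO they summed to 1085 to 2333 and 1132 to 1757 CPM. Their part in the changes of these genes was not tested.

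**Figure D5:**
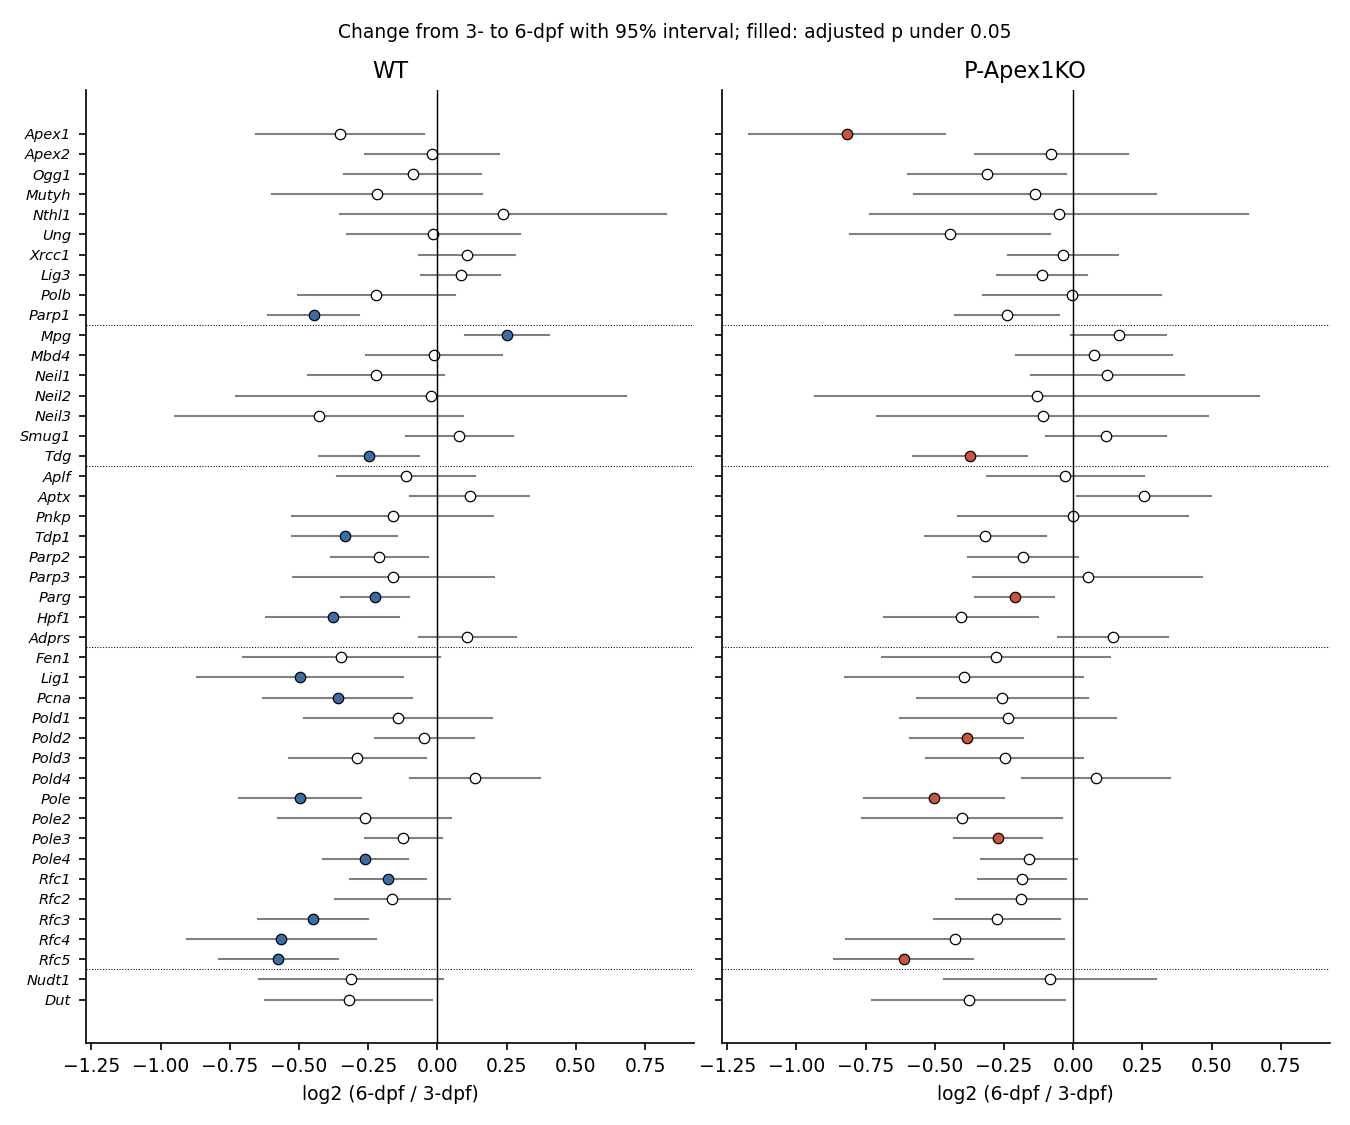
Log2 fold change from 3- to 6-dpf in WT (left) and P-Apex1KO (right) for the 10 genes (top block) and the other 34 genes of the pathway by role (glycosylases, end processing and ADP-ribose, long-patch repair, nucleotide pool), with 95% intervals from edgeR and filled points for an adjusted p under 0.05. Parp1 and 12 of the 34 genes are filled below 0 in WT, and Apex1 and 6 of the 34 in P-Apex1KO.

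From 10- to 14-dpf 6 of the 34 genes fell in WT and 0 rose, beside 4.92% of all genes that fell. They were Neil2, a glycosylase (-1.14, adjusted p = 0.0167), Pcna (-0.27, adjusted p = 0.0188), Rfc4 (-0.42, adjusted p = 0.0279), Pole, Nudt1 and Rfc1. In P-Apex1KO 0 of the 34 passed, 2 had an unadjusted p under 0.05 and DESeq2 called 0, beside 0.259% of all genes. In the test of a difference between the genotypes in this change 0 of the 34 passed, 7 had an unadjusted p under 0.05, and DESeq2 called 1, Pcna (0.55, adjusted p = 0.00206). The 12 proliferation markers summed to 1306 to 1812 CPM in WT at 10-dpf and to 1046 to 1241 CPM at 14-dpf. In P-Apex1KO they summed to 1512 to 1861 and 1683 to 1890 CPM. Their part in these changes was not tested.

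The genes whose level ran most like that of Apex1 were sought by Pearson's r of log2 CPM over the 30 libraries, among the 10436 protein-coding genes whose mean reached 10 CPM. They were Sfxn1 (r = 0.83), a mitochondrial serine carrier, Rbbp4 (0.82), a histone-binding protein, Exosc2 (0.81), a subunit of the RNA exosome, Lsm14a (0.81) and Sae1 (0.81), a subunit of the SUMO-activating enzyme, where the median over the genes compared was 0.11. Within groups, after the group means were taken out, r ran from 0.43 for Exosc2 to 0.71 for Sae1. These values are a description, and the libraries share genotype, day and scaling. Sfxn1 went from a mean of 66.3 CPM in WT to 54.0 in P-Apex1KO at 6-dpf, while Apex1 went from 24.2 to 15.4 CPM. Of the other 9 members, r with Apex1 over the 30 libraries was highest for Ung (0.63), Xrcc1 (0.59) and Parp1 (0.56), and it was below 0 for Apex2 (-0.11) and Polb (-0.29). Within groups it was 0.42 for Ung, 0.33 for Xrcc1, 0.15 for Parp1, -0.30 for Apex2 and -0.38 for Polb.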

How the data were processed

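Total RNA from the fracture callus of 30 mice was sequenced with a stranded kit. Per the labels and the study's methods, the authors demultiplexed reads with bcl2fastq 2.20, aligned them to mm39 with STAR 2.7.0d, counted uniquely mapped reads by gene and strand, and deposited raw counts per Ensembl gene, which were used as they stand. Their own tests used DESeq2 1.32.0 with sex as a covariate. Each library is a separate mouse, grouped by genotype and day from the labels.

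Counts were filtered by expression, scaled by TMM and tested with edgeR 4.0.16 in R 4.3.3 (quasi-likelihood F test, robust, sex in the model), with Benjamini-Hochberg adjustment over all genes tested and a threshold of 0.05. Each time point was fitted alone, and 3- with 6-dpf and 10- with 14-dpf together for the changes. CPM are set on a TMM scale over all 30 libraries, and levels per kb use the canonical transcript of GENCODE M39 on GRCm39. RefSeq promoters (GRCm38.p6) were placed on GRCm39 by exact match. The fits were tested on simulated data.

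The members and lists were chosen with earlier results of these data known. Named were the 10 members, up to 3 called genes per direction and comparison among 34 other repair genes, protein-coding genes within 50 kb of Apex1, and the 5 genes most like it. The genes named as called by another setting, and Pole, Nudt1 and Rfc1, were named after their values were seen. Alternatives were no sex term, DESeq2 1.42.0 and its size factors, library size alone, no filter, a minimum of 10 counts in every library, a replicate block, 1 model of all libraries, and leaving out each library. Deviations of same-numbered libraries of the 2 genotypes had correlations of 0.524, 0.152, 0.22 and 0.181 at 3-dpf. Replicates 3 and 4 of P-Apex1KO there deviated most like WT replicates 2 and 3, however. The labels name no pairs, so pairing was not shown, and the main tests were unpaired at every time point.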

Additional observations from a re-analysis of the deposited data

Results flagged for a closer look

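Of 50 groups of 4 or 5 libraries tested (10 genes in 5 groups), 5 held a library far from the others by Dixon's test, where chance flags about 1 in 20. In replicate 1 of the libraries labelled P-Apex1KO at 3-dpf, Polb stood at 37.4 CPM, with the nearest other library at 24.5 CPM, and Apex2 at 22.2 CPM, with the nearest at 18.5 CPM. That library also held the lowest Apex1 (18.4 CPM), Ung (8.49 CPM) and Parp1 (78.5 CPM) of its group, 1085 CPM of proliferation markers against 2152 to 2333 CPM in the other 3, and 13611 CPM of skeletal muscle markers against 5748 to 10062 CPM. The part of these in the values was not tested. Parp1 in WT replicate 2 at 6-dpf stood at 66.5 CPM, with the nearest library at 76.2 CPM. Ung in WT replicate 2 at 10-dpf stood at 9.64 CPM, with the nearest at 7.66 CPM. Xrcc1 in WT replicate 4 at 14-dpf stood at 29.9 CPM, with the nearest at 25.7 CPM.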

How the results depend on the processing

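Apex1 at 6-dpf passed in all 8 alternatives (log2 fold change -0.70 to -0.48) and in the 8 fits without 1 library (-0.78 to -0.61). At 10-dpf it ran from -0.76 to -0.58 without 1 library, at 14-dpf from -0.42 to -0.21 and at 3-dpf from -0.27 to -0.02. Without a sex term Apex1 did not pass at 10-dpf (-0.60) and passed at 14-dpf (-0.55), 0 members passed at 10-dpf and 2 at 14-dpf (Apex1 and Lig3), Lig3 passed in P-Apex1KO from 10- to 14-dpf (1 member), and of the 34 other repair genes 0 passed at 6-dpf and 14 at 14-dpf. With library size alone, which moved the median of all genes from 0.01 to 0.20 at 6-dpf and from 0.04 to 0.31 at 14-dpf, 4 members passed from 3- to 6-dpf in WT (Apex1, Lig3, Parp1 and Polb). There Lig3 reversed to -0.16 (adjusted p = 0.0321). Under the same scaling 1 member (Lig3) passed from 10- to 14-dpf in WT, and 2 of the other 34 passed at 6-dpf and 8 at 14-dpf. Of the 34, DESeq2 called 2 at 6-dpf and 4 at 14-dpf, and Lig3 (1 member) from 10- to 14-dpf in P-Apex1KO. DESeq2's size factors gave 2 of the 34 at 6-dpf, no filter gave 0 at 6-dpf and 1 at 10-dpf (Parp3), and the model of all 30 libraries gave 3 at 6-dpf, 7 at 14-dpf and 1 member at 14-dpf (Lig3). The number of all genes past the threshold also changed with the setting, over the ranges given below. The counts of members and of the other 34 genes are therefore not read as a result about them. The cause of the changes in calls was not tested.

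With a replicate block in place of sex, Apex1 did not pass at 10-dpf (-0.50, adjusted p = 0.14) and passed at 14-dpf (-0.52, adjusted p = 0.0403), members past the threshold numbered 1 at 6-dpf, 0 at 10-dpf and 1 at 14-dpf, and 0 of the other 34 passed at 6-dpf. The block changed no call of a member at 3-dpf. At 6-dpf the same-numbered correlations were 0.112, -0.121 and 0.00538, at 10-dpf 0.264, -0.253 and 0.281, and at 14-dpf -0.371, -0.17 and -0.11.

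Without 1 library, the members past the threshold numbered 1 to 2 at 6-dpf, 0 to 1 at 10-dpf, 0 to 0 at 14-dpf, 1 to 2 from 3- to 6-dpf in WT, 1 to 3 in P-Apex1KO and 0 to 1 for the difference between these, and 0 to 1 from 10- to 14-dpf in either genotype. Of the other 34 genes 0 to 0 passed at 6-dpf, 0 to 2 at 10-dpf and 0 to 4 at 14-dpf. The model without WT replicate 1 at 14-dpf could not be fitted, since sex and genotype are then the same split. Over all genes the count past the threshold ran over all alternatives from 0 to 85 at 3-dpf, 677 to 3594 at 6-dpf, 750 to 2187 at 10-dpf and 2248 to 6849 at 14-dpf, and without 1 library from 0 to 10, 890 to 2359, 42 to 1827 and 1206 to 3773. The share of calls that were lower went, with library size alone, from 51.4% to 22.6% at 6-dpf, from 53.3% to 35.3% at 10-dpf and from 62.2% to 29% at 14-dpf. Nthl1 and Mutyh, with 27 to 142 reads a library, are the members whose depth limits most what could be seen.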
